A study of Mus musculus with 16 samples.

Results

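The enzymes that build triglycerides were followed in mouse liver as 10 genes listed by symbol, namely Gpam, Gpat3, Gpat4, Agpat2, Lpgat1, Lpin1, Lpin2, Mogat1, Dgat1 and Dgat2. These 10 were taken from a table of 50559 gene symbols, and all 10 were among the 18335 genes that passed the filter on low counts. Liver RNA was sequenced from 16 male C57BL/6J mice, with 4 libraries in each of 4 groups. The LFD group, which the labels call chow, received control siRNA and methylcellulose by gavage. The HFD group ate a diet with 60% fat and received the same control siRNA and gavage. The HFD + siRNA group ate the same HFD and received siRNA against ketohexokinase (KHK), which phosphorylates fructose, together with the methylcellulose gavage. The HFD + Inhib group ate the HFD and received control siRNA together with the KHK inhibitor PF-06835919 by gavage. Diets began at 6 weeks of age, treatments began after 6 weeks on the diets and lasted 4 weeks, and the livers were taken after 10 weeks on the diets. The control siRNA was given at 10 mg/kg and the KHK siRNA at 20 mg/kg every 2 weeks, and the inhibitor at 15 mg/kg 2 times a day, so that the KHK siRNA group also received a larger siRNA dose. The KHK siRNA carries a sugar tag that is taken up by hepatocytes, whereas the inhibitor is systemic. Mice were injected with saline or insulin 10 minutes before the tissues were collected, and the labels do not say which libraries received insulin. Library totals ranged from 24317111 to 35820234 expected counts. The labels number the libraries within each group without naming the animals, so p-values measure the spread between these libraries.

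Triglycerides are assembled on the membrane of the endoplasmic reticulum and on lipid droplets by adding fatty acids, as acyl-CoA, to glycerol-3-phosphate. The glycerol-phosphate acyltransferases add the first fatty acid, AGPAT2 adds the next to give phosphatidic acid, lipins remove the phosphate to give diacylglycerol, and the DGAT enzymes add the last fatty acid. MOGAT1 makes diacylglycerol by another route, from monoacylglycerol. In liver, the product is stored in droplets or exported in VLDL, and intermediates of the pathway also feed phospholipid synthesis.

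In the HFD + Inhib livers, Mogat1 was 10.4-fold, Gpat3 4.41-fold, Gpat4 2.17-fold, Lpin2 1.86-fold and Agpat2 1.59-fold higher than in the HFD livers, while Dgat2 was 1.61-fold lower. In the HFD + siRNA livers, none of these 5 genes but Gpat4 was called higher than in HFD, and Gpam, Gpat3, Lpin1 and Lpgat1 were lower. Between the diets, Mogat1, Gpat3, Lpgat1 and Gpam were higher in HFD than in LFD. A gene was called where its p-value in the quasi-likelihood test of edgeR, adjusted over the 18335 genes by the method of Benjamini and Hochberg, was under 0.05. Of the 5 calls of HFD + siRNA against HFD, 4 were lost when the library classes described next entered the fit, with Gpam, Gpat3 and Gpat4 close to their size and larger errors, and Lpin1 smaller. The Gpam call of HFD against LFD was lost in the same fit (log2 0.46, edgeR adjusted p = 0.078). It was also lost without LFD replicate 3 or HFD replicate 2. All 8 libraries of HFD + Inhib against HFD were of 1 class.

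The libraries did not form 1 class. For each library, the deviation of 8235 well expressed genes from their mean was set against the GC content of their transcripts. LFD replicates 1 and 3 and HFD + siRNA replicates 1, 3 and 4 had a Spearman's rho between 0.477 and 0.631, and the other 11 libraries lay between -0.56 and 0.078. The same 5 libraries had the lowest share of mitochondrial rRNA, between 0.00445% and 0.00957% of counts, against 0.0125% to 0.147% in the other 11. Below, the GC trend means the upward trend of these 5 libraries, while several of the other 11 had a downward one. All HFD and all HFD + Inhib libraries were in the class without the upward trend, which also held 2 LFD libraries and 1 HFD + siRNA library. The class fits therefore could not move the size of differences between HFD + Inhib and HFD, only their errors, although within that class rho was between -0.56 and -0.321 in HFD + Inhib and between -0.463 and -0.077 in HFD. After correction for GC content and length, the 6 calls of that comparison held. Each result is therefore given, where it changes, with the library class as a term in the fit of 16 libraries and with the 11 libraries alone. In the fit of 11, the single HFD + siRNA library is assumed to vary like the libraries of the other groups. Both fits were chosen after the data were seen.

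**Figure D1:**
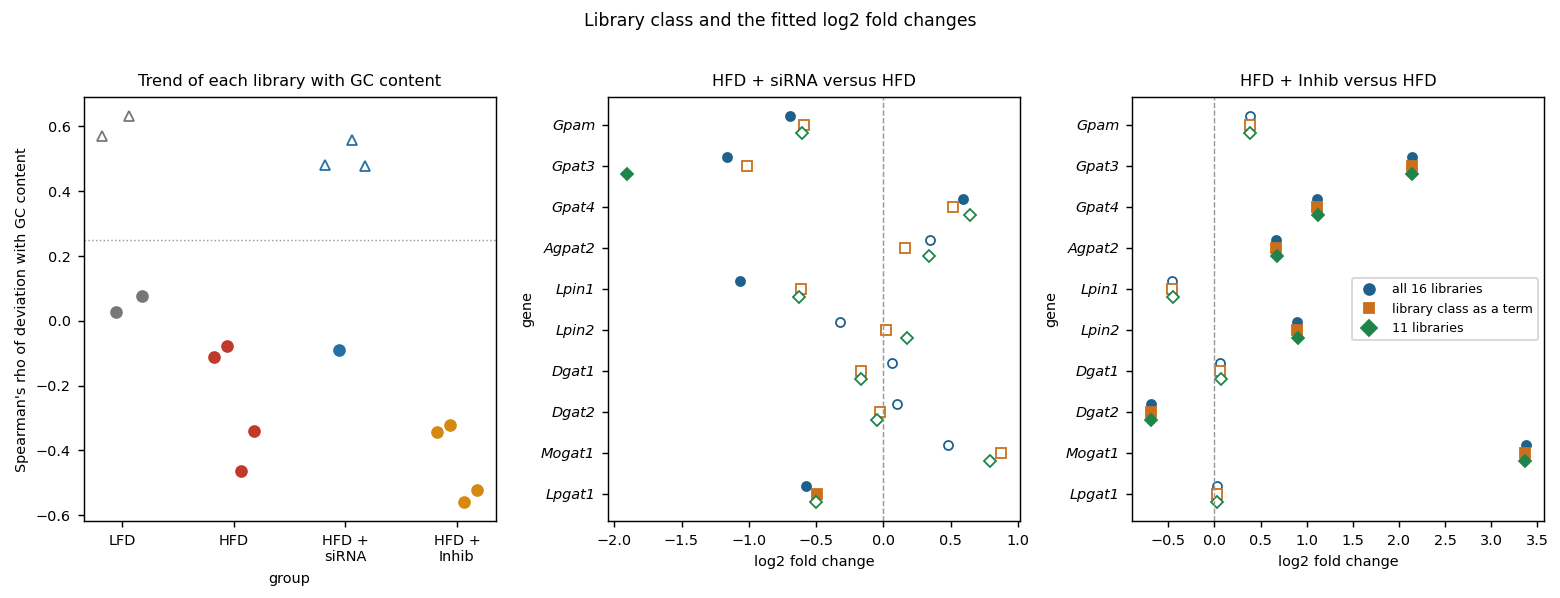
The left panel plots Spearman's rho between each gene's deviation and its GC content for each library (vertical axis) by group, with open triangles for the 5 libraries above the dotted line at 0.25 and filled circles for the other 11. The other panels plot the log2 fold change of the 10 genes (horizontal axis) for either treatment against HFD, from the fit of 16 libraries (circles), with library class as a term (squares) and from the 11 libraries alone (diamonds), filled where the adjusted p was under 0.05. The markers of HFD + Inhib coincide, since all 8 libraries of that comparison are of 1 class, whereas those of HFD + siRNA spread apart and mostly lose their fill.

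Khk, the target of both treatments, was measured first. Its level was 213.9, 233.0, 349.3 and 268.7 CPM (counts scaled to a common library total) in LFD replicates 1 to 4, and 250.7, 322.5, 232.7 and 250.6 CPM in HFD. It was 11.83, 9.14, 18.14 and 11.52 CPM in HFD + siRNA and 111.7, 151.9, 94.57 and 120.5 CPM in HFD + Inhib. Khk was thus lower in every library of both treatments than in any HFD library. Against HFD, it fell by 4.38 on the log2 scale with the siRNA (SE 0.23, edgeR adjusted p = 1.9e-08) and by 1.14 with the inhibitor (SE 0.20, adjusted p = 0.00075).

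The tissue was checked by its markers. Alb, the main secreted protein of hepatocytes, was at 51000 CPM in HFD, and all 8 hepatocyte markers were detected in every group. The summed level of these 8 markers was 82000 CPM ± 7770 (SD, n = 4) in HFD, 87500 ± 5313 in HFD + siRNA, 90410 ± 4849 in LFD and 56880 ± 828 in HFD + Inhib. The hepatocyte sum of HFD + Inhib lay below all other groups. Against HFD, Alb, Ttr, Cps1 and Serpina1c were called lower, and the other 4 were not called. Of these, Hnf4a (419 CPM against 485) and Asgr1 (197 against 256) had lower means. Apob was nearly equal (12550 against 12650) and Cyp2e1 had a higher mean (6323 against 5284). The median log2 fold change of the 8 markers was -0.454. In bulk liver fewer cells of a type and less RNA per cell cannot be told apart. Among 8 markers of adipocytes, Adipoq, Lep, Retn, Plin1 and Adig were below the filter in all groups, and Lep was listed at 0 in every HFD + Inhib library. The summed adipocyte level was nevertheless 103.8 CPM ± 31.2 in HFD + Inhib against 24.98 ± 6.54 in HFD, which came mostly from Cidec and Cfd, at 45.6 and 34.5 CPM in HFD + Inhib. Between the diets, this sum did not overlap either, at 11.41 to 19.11 CPM in LFD and 21 to 34.71 CPM in HFD. Cidec and Cfd were also called higher in HFD than in LFD. Summed levels of 8 macrophage markers (271.5 CPM in HFD, 209.1 in HFD + Inhib), 8 stellate cell markers (436.2 and 334.2), 8 endothelial markers (521.1 and 506.2), 8 bile duct markers (55.7 and 51.1), 8 lymphocyte markers (19.5 and 13.1) and 6 pancreas markers (15.6 and 5.64, of which Cela1 alone passed the filter) were no higher in HFD + Inhib. The part of these marker differences in the results below was not tested.

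Promoter sequence was taken from RefSeq on GRCm38.p6, whose table held 7 of the 10 genes with 11 start sites. The 250 bases before a start site are shown for Gpat3 and Mogat1, because these were the genes with the largest differences between groups, and for Lpin2 and Gpam, because 2 of the searched motifs lay there. Capitals mark a motif, and each sequence runs 5′ to 3′ along the strand of the gene. Gpat3 lies at chr5:100845979-100846228 on the plus strand, Mogat1 at chr1:78510810-78511059 on the plus strand, Lpin2 at chr17:71183282-71183531 on the plus strand and Gpam at chr19:55127239-55127488 on the minus strand.
Gpat3: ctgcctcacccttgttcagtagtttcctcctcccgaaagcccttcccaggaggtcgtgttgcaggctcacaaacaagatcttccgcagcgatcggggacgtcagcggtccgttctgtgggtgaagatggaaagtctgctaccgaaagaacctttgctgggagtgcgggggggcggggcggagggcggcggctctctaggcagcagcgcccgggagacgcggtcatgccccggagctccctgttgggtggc
Mogat1: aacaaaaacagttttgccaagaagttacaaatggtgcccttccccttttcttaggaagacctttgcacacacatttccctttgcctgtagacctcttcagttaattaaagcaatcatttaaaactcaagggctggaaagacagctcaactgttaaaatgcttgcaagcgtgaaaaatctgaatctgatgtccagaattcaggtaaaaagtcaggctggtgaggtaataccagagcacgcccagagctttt
Lpin2: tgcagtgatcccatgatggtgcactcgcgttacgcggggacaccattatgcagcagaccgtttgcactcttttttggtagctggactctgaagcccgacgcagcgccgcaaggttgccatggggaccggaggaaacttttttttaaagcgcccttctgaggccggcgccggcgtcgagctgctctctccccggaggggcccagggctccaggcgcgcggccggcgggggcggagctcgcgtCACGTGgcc
Gpam: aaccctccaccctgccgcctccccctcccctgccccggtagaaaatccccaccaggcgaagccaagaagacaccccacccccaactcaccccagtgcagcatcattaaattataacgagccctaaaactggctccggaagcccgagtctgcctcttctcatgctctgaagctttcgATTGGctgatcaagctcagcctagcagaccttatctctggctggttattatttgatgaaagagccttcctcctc
The motif in Lpin2 is the E-box CACGTG, which 6.021% of all 32851 promoter windows of the same length hold. The motif in Gpam is the CCAAT box, read on the other strand, which 33.85% of windows hold and which also stood in another start site of Lpin2. The half-site AGGTCA was found in another start site of Gpam and in Lpin1 and occurs in 14.024% of windows. The double half-site AGGTCANAGGTCA, which contains the half-site, was in 0.033% of windows and in no window of the 7 genes, as were TCACNCCAC (1.053%) and, in no window at all, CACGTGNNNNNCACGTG. Both strands were searched. None of the searched letters stood in the windows shown for Gpat3 and Mogat1, which says nothing of the factors that bind there.

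The first step of the pathway is shared by 3 of the genes. Gpam encodes the mitochondrial glycerol-phosphate acyltransferase, the best known of these enzymes in liver. Its level was 353.2, 390.5, 296.2 and 334.2 CPM in LFD and 407.2, 640.5, 519.6 and 417.6 CPM in HFD. Gpam was at 282.3, 326.6, 303.1 and 315.6 CPM in HFD + siRNA, and at 607.1, 564.5, 773.9 and 642.4 CPM in HFD + Inhib. Every HFD library was above every LFD and every HFD + siRNA library, and the HFD + Inhib range overlapped that of HFD through HFD replicate 2 only. Gpam was 1.44-fold higher in HFD than in LFD (log2 fold change 0.53 ± 0.14, where the error is the SE, edgeR adjusted p = 0.016), but the adjusted p was 0.057 without LFD replicate 3, 0.05036 without HFD replicate 2, 0.078 with library class as a term and 0.23 in the 11 libraries. It was 1.62-fold lower in HFD + siRNA than in HFD (log2 -0.69 ± 0.14, adjusted p = 0.0055), a difference that kept its size with library class as a term (-0.59 ± 0.18) and in the 11 libraries (-0.61 ± 0.26) but not its call (adjusted p = 0.093 and 0.26). HFD + Inhib against HFD was not called (log2 0.38, 95% interval 0.09 to 0.68, adjusted p = 0.068), although the same comparison was called by DESeq2 (adjusted p = 0.038), after correction for GC content and length (0.031) and without HFD replicate 2 (0.011). The 2 treatments differed directly in Gpam by 2.11-fold (log2 1.08 ± 0.14, adjusted p = 3.4e-05), also with library class as a term (0.97 ± 0.18, adjusted p = 0.0021).

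Gpat3 encodes a glycerol-phosphate acyltransferase of the endoplasmic reticulum that is best known from adipose tissue. Its level was low in LFD, at 1.09, 3.26, 1.58 and 2.34 CPM, from 26 to 91 counts. Gpat3 was at 7.03, 9.84, 9.48 and 8.01 CPM in HFD, at 6.20, 2.29, 3.52 and 3.31 CPM in HFD + siRNA, and at 49.57, 31.09, 31.44 and 39.52 CPM in HFD + Inhib. The groups were separate except that LFD and HFD + siRNA overlapped, and the lowest HFD + Inhib library stood far above the highest HFD library. Gpat3 was 4.13-fold higher in HFD than in LFD (log2 2.05 ± 0.30, edgeR adjusted p = 5e-04) and a further 4.41-fold higher in HFD + Inhib than in HFD (log2 2.14 ± 0.28, adjusted p = 5.4e-05). It was 2.24-fold lower in HFD + siRNA than in HFD (log2 -1.16 ± 0.29, adjusted p = 0.016), which became -1.02 ± 0.43 (adjusted p = 0.23) with library class as a term and -1.91 ± 0.34 (adjusted p = 0.029) in the 11 libraries, where HFD + siRNA is the single replicate 2. HFD + Inhib exceeded HFD + siRNA 9.85-fold (log2 3.3 ± 0.295, adjusted p = 8.8e-07), with a log2 value of 4.05 ± 0.36 (adjusted p = 0.00014) in the 11 libraries. On the annotation GENCODE M21, 30.04% of the exon bases of Gpat3 overlap the opposite-strand gene 4930458D05Rik and 3.99% of its 50-base words occur in Gm42987. Neither is a row of the table, and whether the counting used strand is not given in the sources used here, so their reads cannot be told apart from those of Gpat3.

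Gpat4 encodes the other glycerol-phosphate acyltransferase of the endoplasmic reticulum, which can move to lipid droplets. Its level was 149.0, 124.9, 137.2 and 120.0 CPM in LFD and 120.4, 108.5, 120.5 and 116.3 CPM in HFD. Gpat4 was at 204.6, 182.2, 151.1 and 162.5 CPM in HFD + siRNA and at 350.2, 250.7, 165.8 and 242.7 CPM in HFD + Inhib. All libraries of both treatments were above all HFD libraries, and HFD + Inhib spread widely, with replicate 3 inside the HFD + siRNA range. HFD and LFD did not differ beyond their spread (log2 -0.19, 95% interval -0.53 to 0.15, edgeR adjusted p = 0.45). HFD + Inhib was 2.17-fold above HFD (log2 1.12 ± 0.16, adjusted p = 0.00018). HFD + siRNA was 1.5-fold above HFD (log2 0.59 ± 0.16, adjusted p = 0.028), a call lost when any of HFD replicates 1 to 4 or HFD + siRNA replicates 1, 2 or 4 was left out (log2 0.49 to 0.64 over all 8 omissions), with library class as a term (0.52 ± 0.21, adjusted p = 0.19) and in the 11 libraries (0.64 ± 0.26, adjusted p = 0.24). The direct difference between the treatments was 1.44-fold (log2 0.53 ± 0.16, adjusted p = 0.02), which was not called without HFD + Inhib replicate 1 (0.34), without HFD + siRNA replicate 3 or 4, in the fit of these 2 groups only, with library class as a term (0.60 ± 0.21, adjusted p = 0.066) or in the 11 libraries (0.48 ± 0.28, adjusted p = 0.33).

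Within a library, the 3 genes of this step can be set against each other per kb of their longest transcript, which removes the scaling of the library. Gpam made up 76.6% ± 3.9 (SD, n = 4) of their summed CPM per kb in HFD, 69.1% ± 3.2 in LFD, 60.2% ± 4.3 in HFD + siRNA and 64.4% ± 8.5 in HFD + Inhib. Gpat4 held 20.7% ± 3.9 in HFD and 38.3% ± 3.8 in HFD + siRNA, where the 4 libraries lay between 35.3% and 43.7%, above every library of HFD (15.5% to 24.2%). Replicate 2, the HFD + siRNA library without the GC trend, was at 38.1%. The Gpat3 share was 0.837% ± 0.350 in LFD and 2.70% ± 0.18 in HFD, and it was 1.52% ± 0.64 with the siRNA and 7.56% ± 1.27 with the inhibitor. Counts not divided by length gave Gpat3 shares of 0.43%, 1.39%, 0.791% and 4.03% in the same order of groups. Gpat3 was the smallest of the 3 in every library, with its largest share in HFD + Inhib.

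**Figure D2:**
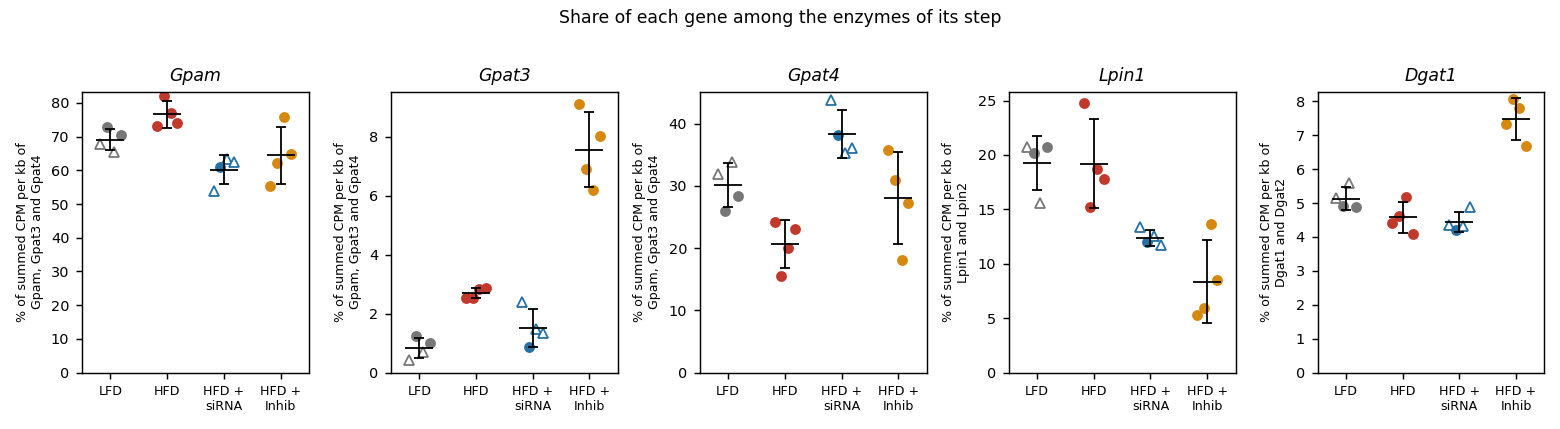
Each panel plots, by group, the share of 1 gene (vertical axis, in %) of the summed CPM per kb of the genes that carry out the same step in the same library. Points are libraries, open triangles mark the 5 libraries with the GC trend, and bars give the mean and SD. The Gpat3 share rises to 6.20% to 9.10% in HFD + Inhib, the Gpat4 share is 35.3% to 43.7% in HFD + siRNA, and the Lpin1 share is lower in both treatments than in HFD.

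Agpat2 encodes the acyltransferase that makes phosphatidic acid, and its loss in humans and mice causes lipodystrophy with fatty liver. Its level was 158.1, 117.4, 169.1 and 123.2 CPM in LFD and 121.7, 144.3, 122.6 and 90.15 CPM in HFD. Agpat2 was at 149.8, 151.9, 138.7 and 169.1 CPM in HFD + siRNA and at 258.5, 189.0, 144.6 and 171.1 CPM in HFD + Inhib. Only HFD and HFD + Inhib were separate, and there HFD replicate 2 and HFD + Inhib replicate 3 were almost equal. HFD + Inhib was 1.59-fold above HFD (log2 0.67 ± 0.17, edgeR adjusted p = 0.012). HFD + siRNA against HFD was not called (log2 0.35, 95% interval -0.01 to 0.71, adjusted p = 0.2), nor was the direct difference between the treatments (0.32, interval -0.04 to 0.69, adjusted p = 0.16), which was called after correction for GC content and length (0.59 ± 0.14, adjusted p = 0.0048). HFD + Inhib against LFD was not called either (0.43, interval 0.06 to 0.79, adjusted p = 0.061), but it was called by DESeq2 (adjusted p = 0.045), with at least 10 counts in every library (0.044), after correction for GC content and length (0.72 ± 0.14, adjusted p = 0.001), with library class as a term (0.57 ± 0.19, adjusted p = 0.04) and without LFD replicate 3 (0.043) or HFD + Inhib replicate 3 (0.025). In LFD, the 2 libraries with the GC trend were the 2 highest, and the GC content of the longest Agpat2 transcript is 58.0%.

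Lpgat1 encodes an acyltransferase of lysophospholipids named for lysophosphatidylglycerol. It was the steadiest of the genes that changed, at 191.2, 212.5, 201.5 and 211.1 CPM in LFD and 289.9, 317.7, 321.0 and 329.0 CPM in HFD. Lpgat1 was at 218.1, 223.3, 188.2 and 214.8 CPM in HFD + siRNA and at 338.6, 333.1, 296.4 and 309.7 CPM in HFD + Inhib. The levels fell into 2 bands without overlap, LFD with HFD + siRNA and HFD with HFD + Inhib. Lpgat1 was 1.54-fold higher in HFD than in LFD (log2 0.62 ± 0.08, edgeR adjusted p = 0.00015) and 1.49-fold lower in HFD + siRNA than in HFD (log2 -0.57 ± 0.08, adjusted p = 0.00053). It was the 1 gene of the 10 whose difference between HFD + siRNA and HFD was called with library class as a term (-0.49 ± 0.09, adjusted p = 0.014), and in the 11 libraries it was -0.50 ± 0.13 (adjusted p = 0.088). After correction for GC content and length, the difference was -0.41 ± 0.08 (adjusted p = 0.0052). The differences of HFD + Inhib from HFD (log2 0.02, 95% interval -0.14 to 0.19) and of HFD + siRNA from LFD (0.05, interval -0.12 to 0.22) were both within their error. The treatments differed directly by 1.51-fold (log2 0.60 ± 0.08, adjusted p = 4e-05), also in the 11 libraries (0.52 ± 0.13, adjusted p = 0.032).

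Lipins convert phosphatidic acid to diacylglycerol, and lipin 1 also acts as a coactivator of transcription with PPARα and PGC-1α. Lpin1 was at 48.0, 116.8, 83.78 and 89.52 CPM in LFD and at 124.5, 72.95, 92.71 and 101.8 CPM in HFD. It was at 39.61, 63.69, 51.03 and 32.82 CPM in HFD + siRNA and at 42.72, 50.63, 122.5 and 69.05 CPM in HFD + Inhib. Spread within groups was wide, with a mean of 84.5 CPM and an SD of 28.3 CPM in LFD, and only HFD + siRNA stood clear of HFD. Lpin1 was 2.09-fold lower in HFD + siRNA than in HFD (log2 -1.07 ± 0.31, edgeR adjusted p = 0.036). That call was lost without HFD replicate 1, 3 or 4 or HFD + siRNA replicate 1, 3 or 4 (log2 -1.27 to -0.93 over the 8 omissions), and the value was -0.61 ± 0.37 (adjusted p = 0.41) with library class as a term and -0.62 ± 0.48 (adjusted p = 0.54) in the 11 libraries. HFD + Inhib against HFD was not called (log2 -0.46, 95% interval -1.11 to 0.20, adjusted p = 0.34), but Lpin1 was called lower without HFD + Inhib replicate 3 (-0.85, adjusted p = 0.04997, at the threshold).

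Lpin2 encodes lipin 2, which is abundant in liver. Its level was 185.4, 465.3, 456.8 and 345.5 CPM in LFD and 380.5, 410.4, 406.2 and 474.9 CPM in HFD. Lpin2 was at 259.3, 472.8, 358.2 and 249.5 CPM in HFD + siRNA and at 767.2, 814.0, 782.8 and 751.6 CPM in HFD + Inhib. The 4 HFD + Inhib libraries were close together and far above all others, while LFD, HFD and HFD + siRNA overlapped. HFD + Inhib was 1.86-fold above HFD (log2 0.90 ± 0.24, edgeR adjusted p = 0.013), and 0.90 ± 0.11 (adjusted p = 0.00025) in the 11 libraries. It was 2.33-fold above HFD + siRNA (log2 1.22 ± 0.24, adjusted p = 0.001), and 0.88 ± 0.27 (adjusted p = 0.035) with library class as a term. HFD + siRNA against HFD was -0.32 (95% interval -0.81 to 0.18, adjusted p = 0.41), and it turned to 0.02 ± 0.26 with library class as a term and to 0.18 ± 0.17 in the 11 libraries, so no direction is given.

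The Lpin1 share of the 2 lipins was lower in both treatments than in HFD. Lpin1 made up 20.7%, 20.2%, 15.6% and 20.7% of the summed CPM per kb of Lpin1 and Lpin2 in LFD, and 24.8%, 15.2%, 18.7% and 17.8% in HFD. Its share was 13.4%, 12%, 12.6% and 11.7% in HFD + siRNA and 5.33%, 5.91%, 13.7% and 8.50% in HFD + Inhib. Every library of either treatment was below every HFD library, and HFD + siRNA replicate 2, the library of the other class, lay within its group. LFD replicate 1, whose Lpin1 and Lpin2 levels were both the lowest of LFD, had the same share as replicate 4. No test was run on the shares.

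The last acylation is carried out by 2 unrelated enzymes. Dgat1 encodes a multipass acyltransferase of the endoplasmic reticulum that re-esterifies fatty acids from outside the cell and from lipolysis. Its level was 15.34, 12.58, 19.12 and 15.52 CPM in LFD, 13.75, 13.95, 13.35 and 13.92 CPM in HFD, 15.60, 12.27, 15.38 and 14.15 CPM in HFD + siRNA, and 16.22, 16.24, 11.07 and 14.06 CPM in HFD + Inhib. All 4 groups overlapped and no comparison of Dgat1 was called, with 95% intervals of -0.21 to 0.35 (log2) for HFD + Inhib and -0.22 to 0.34 for HFD + siRNA against HFD. Only the direct difference between the treatments was called in 1 alternative, the correction for GC content and length (0.26 ± 0.09, adjusted p = 0.035, against 0.00 ± 0.13 without it).

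Dgat2 encodes the enzyme that esterifies fatty acids made in the cell and is the more abundant of the DGAT transcripts in liver. Its level was 338.3, 291.8, 386.9 and 363.5 CPM in LFD and 356.6, 344.1, 292.7 and 391.0 CPM in HFD. Dgat2 was at 410.7, 335.5, 406.8 and 330.5 CPM in HFD + siRNA and at 245.6, 221.8, 156.9 and 235.8 CPM in HFD + Inhib. The HFD + Inhib libraries were below all others, and the other 3 groups overlapped. HFD + Inhib was 1.61-fold lower than HFD (log2 -0.69 ± 0.14, edgeR adjusted p = 0.0025), 1.72-fold lower than HFD + siRNA (log2 -0.79 ± 0.14, adjusted p = 0.00049) and 1.61-fold lower than LFD (log2 -0.68 ± 0.14, adjusted p = 0.0013). The difference from HFD + siRNA was -0.66 ± 0.17 (adjusted p = 0.016) with library class as a term and -0.64 ± 0.22 (adjusted p = 0.1) in the 11 libraries. HFD + siRNA against HFD was 0.10 (95% interval -0.19 to 0.39), and HFD against LFD was 0.00 (-0.29 to 0.30). The Dgat1 share of the summed CPM per kb of both genes was 7.47% ± 0.61 in HFD + Inhib and 4.58% ± 0.46 in HFD, with no overlap between the libraries.

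Mogat1 encodes a monoacylglycerol acyltransferase that is scarce in lean liver. Its level was 0.0839, 0.251, 0.239 and 0.363 CPM in LFD, from 2 to 11 counts per library, and 1.29, 2.77, 1.33 and 1.41 CPM in HFD, from 35 to 108 counts. Mogat1 was at 2.03, 3.02, 2.55 and 2.11 CPM in HFD + siRNA and at 17.67, 21.41, 10.59 and 22.16 CPM in HFD + Inhib, from 327 to 739 counts. The order was LFD, then HFD and HFD + siRNA, which overlapped through HFD replicate 2, and then HFD + Inhib, whose lowest library was above all others. Mogat1 was 7.08-fold higher in HFD than in LFD (log2 2.82 ± 0.39, edgeR adjusted p = 0.00029) and 10.4-fold higher in HFD + Inhib than in HFD (log2 3.37 ± 0.29, adjusted p = 1.1e-06). HFD + siRNA was not called against HFD (log2 0.48, 95% interval -0.13 to 1.10, adjusted p = 0.31), with 0.85 (adjusted p = 0.064) without HFD replicate 2 and 0.88 (adjusted p = 0.26) with library class as a term. It was 9.90-fold above LFD (log2 3.31 ± 0.38, adjusted p = 7.8e-05), a call that missed the threshold in the 11 libraries (3.28 ± 0.62, adjusted p = 0.055). HFD + Inhib exceeded HFD + siRNA 7.41-fold (log2 2.89 ± 0.28, adjusted p = 1.9e-06). Fold changes against LFD rest on few counts. On GENCODE M21, 12.84% of the exon bases of Mogat1 overlap the opposite-strand gene BC035947, which is not a row of the table.

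**Figure D3:**
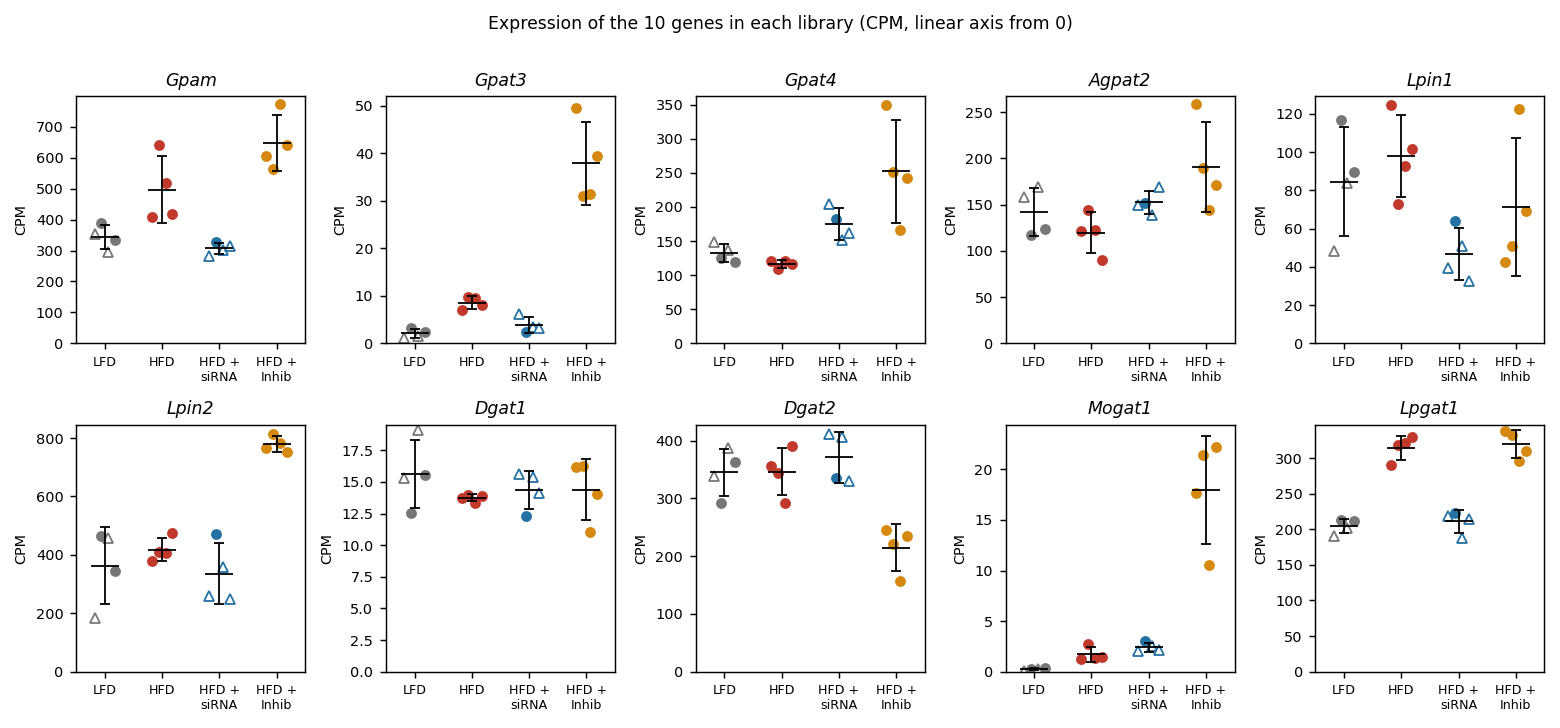
Each panel plots the CPM of 1 gene in every library (points, vertical axis from 0) for the 4 groups (horizontal axis), with the mean and SD of 4 libraries as bars and open triangles for the 5 libraries with the GC trend. Gpat3, Lpin2 and Mogat1 of HFD + Inhib lie above, and Dgat2 below, every library of the other groups, and Lpgat1 falls into 2 bands.

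Levels of different genes were compared per kb of the longest transcript. In HFD, Dgat2 was the highest at 153 CPM per kb ± 18 (SD, n = 4), followed by Gpam (80.4 ± 17.6), Agpat2 (80.39 ± 14.97) and Lpin2 (74.1 ± 7.1), which did not differ beyond their spread. Lpgat1 (43.5 ± 2.4), Gpat4 (21.1 ± 1.0), Lpin1 (17.6 ± 3.8) and Dgat1 (7.28 ± 0.14) came next, and Gpat3 (2.81 ± 0.43) and Mogat1 (1.39 ± 0.58) were the lowest. In HFD + Inhib, Lpin2 (138.1 ± 4.7) and Agpat2 (128.1 ± 32.7) were at the top, Dgat2 (95.1 ± 17.7) came behind Gpam (104.8 ± 14.7), and Mogat1 (14.6 ± 4.3) was in the range of Lpin1 (12.8 ± 6.4) and above Dgat1 (7.63 ± 1.29). LFD and HFD + siRNA both had Dgat2 first (152.6 ± 18.01 and 164.0 ± 19.4), followed by Agpat2 and Lpin2. The order depended on the transcript length used, and division by length does not apply if a probe assay made the counts. Without it, Gpam (496.2 CPM ± 108.7) and Lpin2 (418.0 ± 40.2) were above Dgat2 (346.1 ± 40.8) in HFD. With the mean length of all transcripts, Dgat2 in HFD + Inhib (237.1 ± 44.0) was above Agpat2 (200 ± 51) and Gpam (188.7 ± 26.4), and in HFD Lpin2 came directly after Dgat2 and Agpat2 dropped below Gpam and Lpgat1.

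Counts over the 10 genes were read against all genes tested. The 10 were chosen with earlier results of these data known, so these counts are descriptions. HFD against LFD called 4 of 10 higher and 0 lower, beside 9.58% higher and 8.8% lower of all genes (18.4% in either direction). With library class as a term, 3 were higher and 0 lower, since Gpam (0.46, edgeR adjusted p = 0.078) was lost. HFD + siRNA against HFD called 1 higher and 4 lower, beside 5.2% and 6.55% (11.7% in either direction), and only Lpgat1 of these 5 with library class as a term, where Gpam (-0.59), Gpat3 (-1.02) and Gpat4 (0.52) kept most of their size and Lpin1 (-0.61) fell furthest. HFD + Inhib against HFD called 5 higher and 1 lower, beside 9.8% and 8.42% (18.2% in either direction). The direct comparison of HFD + Inhib with HFD + siRNA called 6 higher and 1 lower, beside 17.3% and 16.6% (33.8% in either direction). With library class as a term, 5 were higher and 1 lower, since Gpat4 (0.60, edgeR adjusted p = 0.066) was lost. That fit called 7 higher and 1 lower in HFD + Inhib against LFD. The shares of all genes in this paragraph are from the fit without the class term. With that term, fewer of all genes were called in the comparisons where a call was lost, and no share is given. Against LFD, HFD + siRNA called 1 gene higher, Mogat1, beside 4.75% higher and 3.88% lower of all genes (8.63% in either direction), and HFD + Inhib called 6 higher and 1 lower, beside 18.8% and 18.2% (36.9%). No gene of the 10 was lower in HFD than in LFD by DESeq2 or at an unadjusted p under 0.05 either. The median log2 fold change of the 10 was 0.21 for HFD against LFD, -0.13 for HFD + siRNA and 0.53 for HFD + Inhib against HFD, and the median of all genes lay between -0.01 and 0.02 in these comparisons. The 3 comparisons that involve HFD share its 4 libraries.

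**Figure D4:**
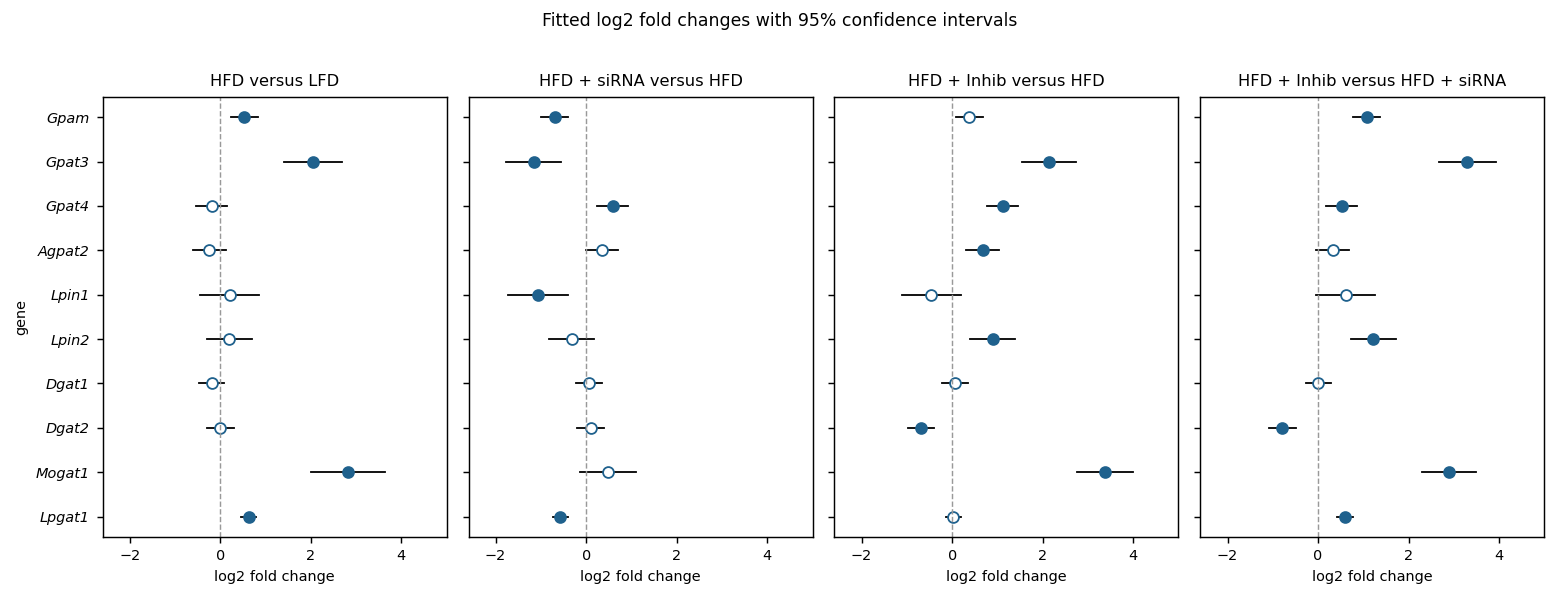
The log2 fold change of each of the 10 genes (horizontal axis, points) is drawn with its 95% confidence interval (lines) for 4 comparisons from the fit of 16 libraries, filled where the adjusted p was under 0.05. Gpat3 and Mogat1 lie farthest to the right in HFD against LFD and in HFD + Inhib against both HFD groups, and Dgat2 is the 1 gene called lower in HFD + Inhib.

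The neighbouring genes of the pathway were read from lists by their known place in lipid metabolism. The lists were drawn up with earlier results of these data known, so their counts are descriptions. Of 15 other enzymes of the glycerolipid backbone that could be tested (Mogat2 did not pass the filter), HFD + Inhib against HFD called 2 higher and 1 lower. Lpcat3 (log2 0.99) and Lclat1 (0.44) were higher and Plpp1 (-0.39, edgeR adjusted p = 0.032) was lower, beside 9.8% and 8.42% of all genes. These 3 of 15 are near the 18.2% of all genes called in either direction. DESeq2 called 3 higher and 2 lower, and 3765 of all genes in either direction. Lpcat3 inserts polyunsaturated fatty acids into phosphatidylcholine, and Plpp1 is a lipid phosphate phosphatase. The acyltransferases Agpat1, Agpat3 and Agpat4 and the remaining paralogs Gpat2 and Lpin3 were not called in that comparison, and Agpat5 (0.27, adjusted p = 0.057) was called with library class as a term (adjusted p = 0.039). HFD + siRNA against HFD called 1 higher, Bscl2 (0.58), which encodes the droplet protein seipin, and 1 lower, Tmem68 (-0.52), beside 5.2% and 6.55% of all genes. HFD against LFD called 3 higher and 2 lower, beside 9.58% and 8.8%, with Plpp2 (-0.97) the largest. With library class as a term, none of these 7 calls of HFD + siRNA against HFD and HFD against LFD held, although most kept most of their size. In HFD against LFD, Plpp5 was 0.53 (adjusted p = 0.059), Lclat1 0.32 (from 0.40, adjusted p = 0.091), Tmem68 0.33 (from 0.43, adjusted p = 0.15) and Bscl2 -0.28 (from -0.38, adjusted p = 0.16), while Plpp2 came to -0.53 (adjusted p = 0.11). In HFD + siRNA against HFD, Bscl2 was 0.45 (adjusted p = 0.091) and Tmem68 -0.38 (adjusted p = 0.23). That fit called Agpat1 higher in HFD than in LFD (0.47, adjusted p = 0.047) and Mboat7 lower in HFD + siRNA than in HFD (-0.51, adjusted p = 0.022).

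Enzymes that break triglycerides down or regulate their breakdown were called higher in 8 of 12 cases and lower in 0 in HFD + Inhib against HFD, beside 9.8% higher and 8.42% lower of all genes. No gene of the 12 was lower by DESeq2 or at an unadjusted p under 0.05. The median log2 fold change of the list was 0.71. The 4 largest were the monoacylglycerol lipase Abhd6 (1.84), G0s2 (1.27), which inhibits the triglyceride lipase ATGL, Pnpla2 (1.09), which encodes ATGL, and Mgll (0.96), which hydrolyses monoacylglycerol. Genes with opposite roles in lipolysis, Pnpla2 and its inhibitor G0s2, were thus both higher. In HFD + siRNA, 0 of the 12 were higher and 2 were lower than in HFD, beside 5.2% and 6.55% of all genes, Pnpla3 (-2.77, adjusted p = 0.034) and the lysosomal lipase Lipa (-0.30, adjusted p = 0.035), and neither was called by edgeR with library class as a term, where Pnpla3 was -3.34 (adjusted p = 0.11) and Lipa -0.26 (adjusted p = 0.23). DESeq2 called 0 higher and 3 lower, and 2726 of all genes in either direction. At an unadjusted p under 0.05, 1 was higher and 4 were lower, with no share of all genes at that threshold given.

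Genes that supply glycerol-3-phosphate and acyl-CoA were called higher in 7 of 12 cases and lower in 0 in HFD + Inhib against HFD, beside 9.8% and 8.42% of all genes. The median log2 fold change of the list was 0.75. DESeq2 also called 7 higher and 0 lower, and 3765 of all genes in either direction. At an unadjusted p under 0.05, 8 were higher and 1 lower, with no share of all genes at that threshold given. The called genes were led by Acsl1 (1.55), the main acyl-CoA synthetase of liver, Slc27a2 (1.40), a very long chain acyl-CoA synthetase, Dbi (1.26), an acyl-CoA binding protein, and Acsl3 (1.08). HFD + siRNA against HFD called 3 lower, including Gk (-0.61), which phosphorylates glycerol, Acsl4 (-0.58) and Gpd2 (-0.53), and 1 higher, Gpd1l (0.42), beside 6.55% and 5.2% of all genes, and with library class as a term only Gk was called (-0.54, adjusted p = 0.016), while Gpd1l was 0.46 (adjusted p = 0.14), Acsl4 -0.39 (adjusted p = 0.16) and Gpd2 -0.26 (adjusted p = 0.47). Gk was higher in HFD than in LFD (1.03, adjusted p = 4.9e-06).

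Phospholipid enzymes, which use the same diacylglycerol and phosphatidic acid, were called higher in 7 of 19 cases and lower in 1 in HFD + Inhib against HFD, beside 9.8% and 8.42% of all genes, led by Chpt1 (1.17), the last enzyme of phosphatidylcholine synthesis. In HFD + siRNA, 0 were higher and 2 were lower than in HFD, beside 5.2% and 6.55% of all genes, namely Pcyt1a (-0.59), which encodes the rate-limiting enzyme of that route, and Cept1 (-0.48), of which Pcyt1a was called with library class as a term (-0.48, adjusted p = 0.023) and Cept1 was not (-0.17, adjusted p = 0.5), whereas Pcyt2 was called lower in that fit (-0.40, adjusted p = 0.034). DESeq2 called 0 higher and 4 lower, and 2726 of all genes in either direction. At an unadjusted p under 0.05, 4 were higher and 5 lower, with no share of all genes at that threshold given. Of 13 regulators of the pathway, HFD + Inhib against HFD called 0 higher and 1 lower, Usf1 (-0.48, adjusted p = 0.0053), beside 9.8% and 8.42% of all genes, and HFD + siRNA against HFD called none, by edgeR. DESeq2 called 1 higher and 1 lower in each of these comparisons. It called 3765 of all genes in HFD + Inhib and 2726 in HFD + siRNA against HFD. At an unadjusted p under 0.05, 2 were higher and 3 lower in HFD + Inhib and 2 and 2 in HFD + siRNA. No share of all genes at that threshold is given. The transcription factor genes Srebf1 (-0.23, adjusted p = 0.63), Mlxipl (0.02, adjusted p = 0.94), Ppara (0.30, adjusted p = 0.12) and Pparg (-0.32, adjusted p = 0.062) were not called in HFD + Inhib against HFD, but Pparg was called lower with library class as a term (adjusted p = 0.035) and in the 11 libraries (adjusted p = 0.037), at the same size (-0.32 and -0.31). HFD against LFD called 3 regulators higher and 2 lower, beside 9.58% and 8.8% of all genes, among them Ppara (0.81, adjusted p = 0.00076) and Pparg (0.55, adjusted p = 0.0043) higher, and Scap (-0.70, adjusted p = 0.0043) and Mlxipl (-0.62, adjusted p = 0.0032) lower. In the 11 libraries, Pparg was still called (0.50, edgeR adjusted p = 0.042). Ppara (0.69, adjusted p = 0.052), Scap (-0.34, adjusted p = 0.089) and Mlxipl (-0.44, adjusted p = 0.11) were not.

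**Figure D5:**
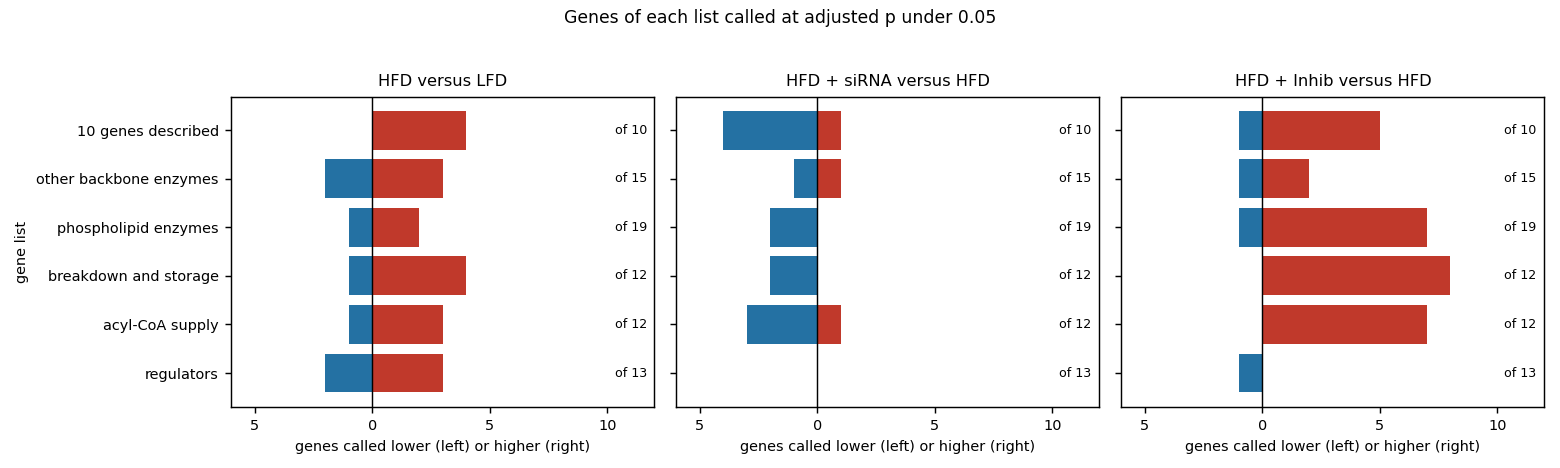
Bars give the number of genes called higher (right, red) or lower (left, blue) at an adjusted p under 0.05 in each list, with the number tested beside them, for 3 comparisons. HFD + Inhib against HFD has 8 of 12 breakdown genes and 7 of 12 supply genes higher and none lower, and HFD + siRNA against HFD has no list with more than 1 gene higher.

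Across the 16 libraries, the genes whose log2 CPM followed each of the 10 most closely were ranked by Pearson's r among 8568 genes. The points share libraries, groups and base composition, so these values are descriptions. They depended on the measure, since by Spearman's rho the 3 closest genes shared none with those named here for 7 of the 10 (Gpam, Gpat3, Gpat4, Agpat2, Lpin1, Dgat2 and Lpgat1). Mogat1 was closest to Aldh3a2 (r = 0.99), an aldehyde dehydrogenase of fatty aldehydes, Ehd4 (0.98) and Hadh (0.967), an enzyme of mitochondrial fatty acid oxidation. Gpat3 was closest to Rab30 (0.965), Tlcd4 (0.961) and Pus10 (0.958), and Gpam to Elovl5 (0.968), a fatty acid elongase, Lipa (0.955) and Tmem64 (0.937). For Gpat4 these were Dlec1 (0.933), Mettl7b (0.929) and Bcl2l13 (0.914), and for Agpat2 they were Plin5 (0.883), a droplet protein, Mettl7b (0.881) and Phospho1 (0.874). Lpin2 was closest to Gm46241 (0.942), Phyh (0.929), the peroxisomal phytanoyl-CoA hydroxylase, and Ubap1 (0.928), and Dgat2 to C8g (0.946), Gprc5c (0.944) and Dgcr2 (0.94). Lpgat1 was closest to C330018D20Rik (0.946), Rap2c (0.942) and Mob4 (0.941), Lpin1 to Kat2b (0.886), Nfat5 (0.883) and Tnks2 (0.87), and Dgat1 to Cyc1 (0.905), Uqcrc1 (0.9) and Exosc5 (0.896). Among the 10 themselves, Gpat3 followed Mogat1 (r = 0.887), Lpgat1 (0.85) and Gpam (0.844) and ran opposite to Dgat2 (-0.72), over 16 libraries.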

How the data were processed

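Liver RNA-Seq libraries of 4 groups with 4 libraries each were grouped by the labels. Expected counts by gene symbol, unscaled and with 15.1% of values not whole, were deposited in 1 table. Per the labels, the submitters' processing notes name STAR, RSEM and the build mm39. The methods of the study name HTG EdgeSeq, a probe assay, and whether that assay or sequencing of whole transcripts gave these values could not be settled. Annotation, strandedness and versions are not given in the sources used here.

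Expected counts were rounded, filtered by filterByExpr (minimum count 10, minimum total 15) and scaled by TMM, and 1 quasi-likelihood fit of 16 libraries in edgeR 4.0.16 (R 4.3.3) gave all comparisons, with Benjamini-Hochberg adjusted p-values over all 18335 genes tested and a threshold of 0.05. The study's methods state no count test. In data simulated for HFD against LFD with 18070 genes, 88 of 100 genes changed 2-fold and 40 of 100 changed 1.5-fold were recovered, with 9 false calls. The changed genes had a mean above 2 CPM. These simulated data held no GC trend and no library classes, so the numbers do not cover the errors that the classes bring to the real comparisons. DESeq2 1.42.0, other scaling, filters, thresholds and left-out libraries were alternatives. Transcript lengths and GC content came from GENCODE M21 on GRCm38, which covered 86.5% of genes tested, and promoters from RefSeq, used by gene symbol and not by coordinates of the table. The 24 pairs of libraries within groups differed by more than sampling noise (chi-square per gene 20.6 to 154). The correlation of same-numbered libraries across groups was between -0.132 and 0.336 (mean 0.041) and over 0.1 in 6 of 24 pairs. In the 72 other pairs its mean was -0.014. The numbers were therefore not used as pairs, although these values cannot exclude that animals were paired.

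The genes named are the 10 members, Khk, and in each further list the largest called changes (at most 4), with the 3 closest genes per member by Pearson's r. Members and lists were chosen with earlier results of these data known. Other genes named in the lists were chosen after their values were seen.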

Additional observations from a re-analysis of the deposited data

Results flagged for a closer look

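Mogat1 in HFD replicate 2 was at 2.774 CPM, while the other 3 HFD libraries were between 1.292 and 1.407 CPM, so that its gap took up 0.922 of the range of the group, above the critical value for 4 libraries. It was 1 of the 44 sets of 4 libraries with such a gap, and chance gives about 1 in 20. HFD replicate 2 also had the highest Gpam of its group, at 640.5 CPM. Its tissue markers stood apart too. The adipocyte sum was 34.71 CPM, against 21 to 22.98 in the rest of HFD, and no adipocyte marker was at 0. The hepatocyte sum was 70450 CPM, against 84550 to 87020. The part of these markers in its Mogat1 level was not tested. Without this library, Mogat1 was still called higher in HFD than in LFD, and in HFD + Inhib than in HFD by 3.738 on the log2 scale. For Mogat1, HFD + siRNA against HFD moved from 0.483 to 0.848 (edgeR adjusted p = 0.064) and stayed not called, but the groups overlapped through this library only.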

How the results depend on the processing

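Of the 60 comparisons of the 10 genes, 30 were called, and 21 of these kept call and direction in all of the 17 settings that kept the threshold at 0.05 (16 for Mogat1). Of the 30 not called, 23 stayed so. At an adjusted p under 0.01, all genes called numbered 1287, 689, 1733, 3711, 566 and 4123 (HFD against LFD, HFD + siRNA against HFD, HFD + Inhib against HFD, HFD + Inhib against HFD + siRNA, HFD + siRNA against LFD and HFD + Inhib against LFD), and 2 of the 10 genes were called in HFD + siRNA against HFD. In HFD + siRNA against LFD, DESeq2 called 2 of the 10, a filter of at least 10 counts in every library 0, since Mogat1 did not pass it, and a fit of the 2 compared groups only called 808 genes of all. The causes of other changes were not tested.

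In the 11 libraries without the GC trend, all genes called numbered 654 (HFD against LFD), 208 (HFD + siRNA against HFD), 1496 (HFD + Inhib against HFD + siRNA), 67 (HFD + siRNA against LFD) and 3639 (HFD + Inhib against LFD), with fewer libraries in each. The 10 genes gave 1 call in HFD + siRNA against HFD and 0 in HFD + siRNA against LFD. With library class as a term, all genes called numbered 1730 (HFD against LFD), 498 (HFD + siRNA against HFD) and 3078 (HFD + Inhib against HFD + siRNA), and 1 of the 10 was called in HFD + siRNA against HFD.

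All directions that turned belong to differences not called in the fit of 16 libraries. Among them, Gpat3 in HFD + siRNA against LFD was called higher by DESeq2 and without LFD replicate 2 or HFD + siRNA replicate 2, and Dgat1 in HFD + Inhib against HFD + siRNA was called higher (0.261) after correction for GC content and length. With HFD against LFD, the log2 fold change of Lpin1 was -0.07 in the 11 libraries and -0.071 with library class as a term, that of Lpin2 -0.04 with library class, that of Dgat2 -1.7e-05 by DESeq2, and that of Khk 0.078 in the 11 libraries, 0.155 with library class, 0.005 with at least 10 counts and 0.195 after correction for GC content and length. With HFD + siRNA against HFD, Lpin2 was 0.175 (11 libraries) and 0.023 (library class), Dgat1 -0.167, -0.164 and -0.1 (11 libraries, library class, GC correction), and Dgat2 -0.048, -0.026 and -0.055 in the same order. With HFD + siRNA against LFD in the 11 libraries, which hold 1 HFD + siRNA library, Gpat3 was -0.282 (SE 0.359) and Lpin2 0.223. In the 5 libraries with the GC trend, Gpat3 was 1.687 (SE 0.366, edgeR adjusted p = 0.064). Neither Gpat3 value was called, and the first lay within its error of 0, so opposite directions in the classes are not shown. After the GC correction, Lpgat1 was -0.007 in HFD + Inhib against HFD. Dgat1 in HFD + Inhib against LFD was 0.041, 0.033 and 0.157 (11 libraries, library class, GC correction).

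Leaving out 1 library at a time, all genes called ranged from 2001 (without LFD replicate 3) to 3691 in HFD against LFD, from 1100 (without HFD replicate 3) to 1981 in HFD + siRNA against HFD and from 965 (without HFD + siRNA replicate 3) to 1456 in HFD + siRNA against LFD. The other omissions that moved a count by over 1.5 times were LFD replicate 1 (2147), HFD replicate 3 (2013) and HFD replicate 4 (2183) in HFD against LFD, HFD replicate 4 (1328) and HFD + siRNA replicates 1, 3 and 4 (1423, 1391 and 1162) in HFD + siRNA against HFD, and HFD + siRNA replicates 1 and 4 (1052 and 992) in HFD + siRNA against LFD. The 10 genes gave 3 to 4 calls in HFD + siRNA against HFD and 1 to 2 in HFD + siRNA against LFD, the second being Gpat3 or Lpin1. Log2 fold changes that turned ranged from -0.007 to 0.347 (Lpin2), -0.067 to 0.076 (Dgat2) and -0.122 to 0.153 (Khk) in HFD against LFD, -0.002 to 0.174 (Dgat1) and -0.014 to 0.058 (Lpgat1) in HFD + Inhib against HFD, -0.048 to 0.111 (Dgat1) in HFD + Inhib against HFD + siRNA, and -0.344 to 0.011 (Lpin2) in HFD + siRNA against LFD.

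The replicate block, fitted although the labels state no pairing, left the calls among the 10 genes at 4, 5, 6, 7, 1 and 7 in the 6 comparisons, as without it. Of the differences not called, Dgat2 (-0.00041) and Khk (0.004) turned in HFD against LFD.

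Depth limits Mogat1 and Gpat3 in LFD, with 2 to 11 and 26 to 91 counts per library. Counting error does not cover differences between animals.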
